A study of Homo sapiens with 20 samples.

Results

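Interferon-stimulated genes (ISGs) were followed in RNA sequencing of hTCEpi, a telomerase-immortalized line of human corneal epithelial cells, given recombinant human SPARC. The 34 genes were chosen by name, as the entries of the count table whose gene symbol was on a list of ISGs. They are 34 of the 60671 genes of the table. The groups were cells given SPARC, a secreted matricellular glycoprotein, at 0.05, 0.5 or 5 µg/ml for 24 h and control cells given 0 µg/ml, with 5 replicates each (20 samples in 4 groups). All groups shared the same line, medium and culture time, so the data describe a single immortalized epithelial line without stroma, nerves or immune cells added. The labels do not say whether replicates were separate cultures, so the p-values measure only the spread between these samples, which may be technical.

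Type I and type III interferons signal through receptor-bound kinases to a complex that holds STAT2 and IRF9 and binds the interferon-stimulated response element (ISRE) in the promoters of ISGs. Interferon-gamma acts through the gamma-activated site (GAS) and induces factors such as IRF1. The products of ISGs sense foreign nucleic acids, block steps of virus replication, modify proteins with ISG15, or damp the signal. At the ocular surface, the corneal epithelium is a barrier to viruses such as herpes simplex virus.

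The promoters of the members are shown because the ISRE is the feature that ISGs are known to share and that the choice by symbol did not use. Promoter sequence from RefSeq (build GRCh38.p14), 250 bases before to 50 after the start, was found for 27 of the 34 members, in 37 windows. The windows were searched on both strands for the core of an ISRE (GAAA, any 2 bases, GAAA) and the core of a GAS (TTC, any 3 bases, GAA). An ISRE match was present for 19 of the 27 member genes (70.4%), against 4.38% of the 27305 genes of the RefSeq table (1195 genes), and a GAS match for 9 of the 27 (33.3%), against 9.38%. By window the ISRE shares were 62.2% of members' windows and 3.57% of all windows, and the GAS shares 27.0% and 7.66%. A match says that these letters are present, not that a factor binds them. IFIH1 and SAMD9, which moved in opposite directions at 5 µg/ml, both hold ISRE matches. Their windows are given 5′ to 3′ on the minus strand, with the ISRE matches in capitals. IFIH1 lies at chr2:162318635-162318934 and SAMD9 at chr7:93117930-93118229.
IFIH1: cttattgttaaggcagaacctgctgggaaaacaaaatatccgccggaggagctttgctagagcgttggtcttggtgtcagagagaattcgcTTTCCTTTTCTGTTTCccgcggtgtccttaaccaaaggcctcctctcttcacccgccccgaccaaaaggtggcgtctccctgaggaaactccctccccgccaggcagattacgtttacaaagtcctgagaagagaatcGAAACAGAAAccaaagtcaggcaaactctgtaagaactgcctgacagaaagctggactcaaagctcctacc
SAMD9: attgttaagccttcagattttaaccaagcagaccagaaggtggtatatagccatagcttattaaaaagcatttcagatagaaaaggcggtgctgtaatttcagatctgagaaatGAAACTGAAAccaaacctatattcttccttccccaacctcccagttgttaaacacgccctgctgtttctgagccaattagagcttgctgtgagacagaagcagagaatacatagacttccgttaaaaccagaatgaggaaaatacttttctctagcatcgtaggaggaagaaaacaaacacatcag

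IFIH1 held 3 ISRE matches, at −159 to −150, −153 to −144 and −21 to −12 with the start base counted as 0. The first 2 of these overlap each other by 4 bases, so they print as 1 run of capitals. SAMD9 held 1, at −136 to −127. Shorter stretches follow for other members, each with the match in capitals. IRF1 is shown for its GAS match (chr5:132490881-132490905, minus strand), since no ISRE match was in its window. IFIT3 is shown for 1 of its ISRE matches (chr10:89327867-89327892, plus strand). DTX3L and PARP9 are shown because they share 1 element (chr3:122564324-122564349), read from the plus strand for DTX3L and from the minus strand for PARP9.
IRF1: agcctgatTTCCCCGAAatgacggc
IFIT3: taaattagTTTCACTTTCcagtttcc
DTX3L: agggaagcGAAACTGAAActttgcgc
PARP9: gcgcaaagTTTCAGTTTCgcttccct
No ISRE match was in the windows of STAT2, IRF1, IRF9, IFI35, OAS1, HERC6, CMPK2 or XAF1. The search asked for exactly 2 bases between the repeats. Windows of OAS1, IFI35, CMPK2 and XAF1 hold the repeats with 1 base between them, which was not counted. The lack of a match therefore does not say that these promoters lack an ISRE. Members with no entry in the promoter table were IFIT2, MX2, OAS2, OASL, IRF7, USP18 and TRIM22.

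**Figure D1:**
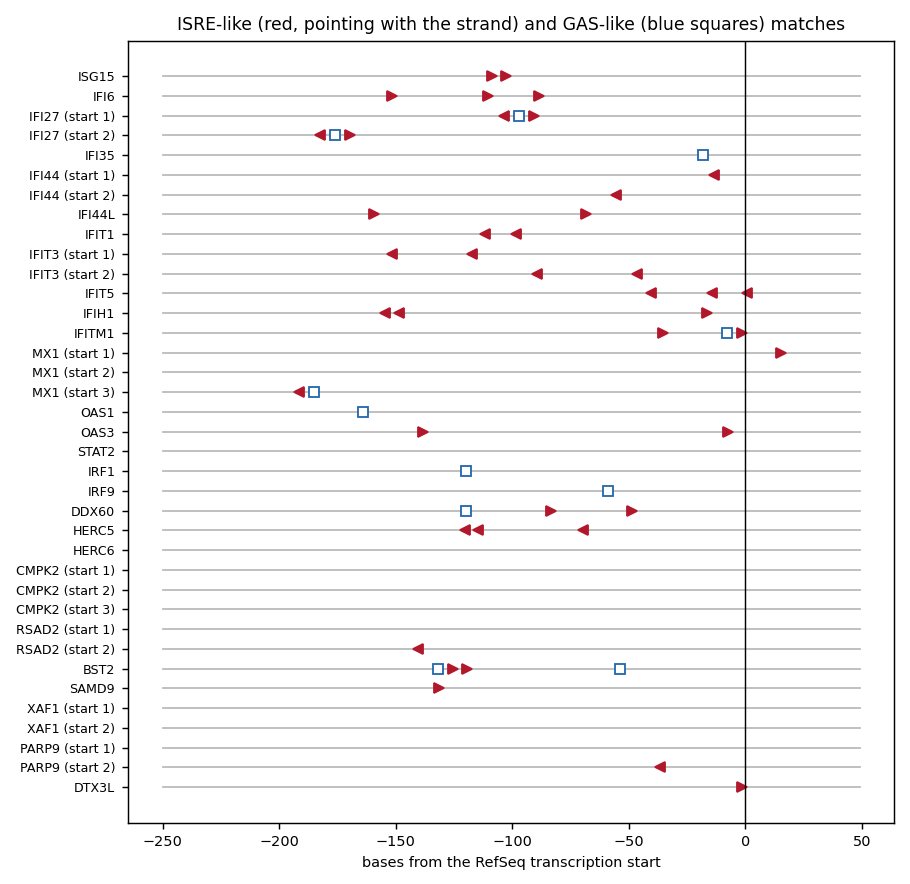
Positions of ISRE matches (red triangles, pointing with the strand) and GAS matches (blue squares) in the RefSeq promoter windows of 27 members, in bases from the start. Most ISRE matches lie before the start, and the windows of STAT2, HERC6, CMPK2 and XAF1 show no match to either core as searched.

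Total counts ran between 31955358 and 50112286 per sample. Levels are given as CPM, a count scaled to the library's size with edgeR's TMM factors, and 3 counts corresponded to 0.0599 to 0.0941 CPM depending on the sample. The epithelial label was met in part: KRT5, the basal keratin, averaged 11300 ± 157 CPM at 5 µg/ml and 11300 ± 354 CPM in controls (SD, n = 5 each), and PAX6, a transcription factor of the eye, 7.65 ± 0.756 and 7.66 ± 0.954 CPM. KRT12, the keratin of differentiated cornea, had at most 4 counts in any sample. KRT3, another corneal keratin on the list, was present at a low level. It had 1.8 ± 0.318 CPM at 5 µg/ml and 1.46 ± 0.0501 CPM in controls, and at most 87 counts in a sample. Of 9 epithelial markers tested, KRT14, DSP and TP63 rose and KRT15 and EPCAM fell at 5 µg/ml against control (edgeR). Of all genes tested, 7.04% rose and 4.58% fell in that comparison. The part of these marker changes in the results on ISGs was not tested. Of 10 immune cell markers 8 stayed below 10 counts in every sample, FCGR3A was at 0 throughout and PTPRC, the common leukocyte antigen, had at most 7 counts. The summed level of the immune list was 1.6 to 2.5 CPM at 5 µg/ml and 2.73 to 4.17 CPM in controls, and it was carried mainly by CD14 and by IL3RA, which fell by 0.71 ± 0.22 on the log2 scale (adjusted p = 0.0187, edgeR). Stromal markers summed to 5.96 to 9.88 CPM at 5 µg/ml and 5.5 to 8.17 CPM in controls, and endothelial and melanocyte markers to 3.25 to 4.63 and 3.78 to 5.04 CPM, with 3 genes tested, 0 called by edgeR and 1 at an unadjusted p under 0.05 in each list. In bulk RNA, fewer expressing cells and less RNA per cell cannot be told apart.

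Most ISGs were present at a low or moderate level without any added interferon. Between genes, levels were compared per length, as TPM, the count per exon length scaled to the same sum in every sample. The length was that of all annotated exons of a gene merged, 13047 bases for MX2 and 941 for ISG15. Where the cells make a shorter RNA than this, TPM reads low, so ranks between genes depend on the annotation. OAS3, which makes the oligoadenylates that activate RNase L, stood at the top of the list with 55.5 ± 2.81 TPM over the 20 samples (SD), above 87.5% of the genes tested. DTX3L, a ubiquitin ligase that works with PARP9, followed at 28.3 ± 1.66 TPM. ISG15, the ubiquitin-like modifier, had 20 ± 1.94 TPM and IFIT5, an RNA-binding protein, 18.6 ± 1.1 TPM, ranges that overlap each other. The other end of the list held antiviral effectors at the limit of detection: MX2, a GTPase that restricts retroviruses, had 0.0409 ± 0.0233 TPM, RSAD2 (viperin) 0.0366 ± 0.0388 TPM and XAF1, an apoptosis-linked factor, 0.00212 ± 0.00519 TPM. XAF1 had 3 counts in all and was at 0 in 17 samples.

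**Figure D2:**
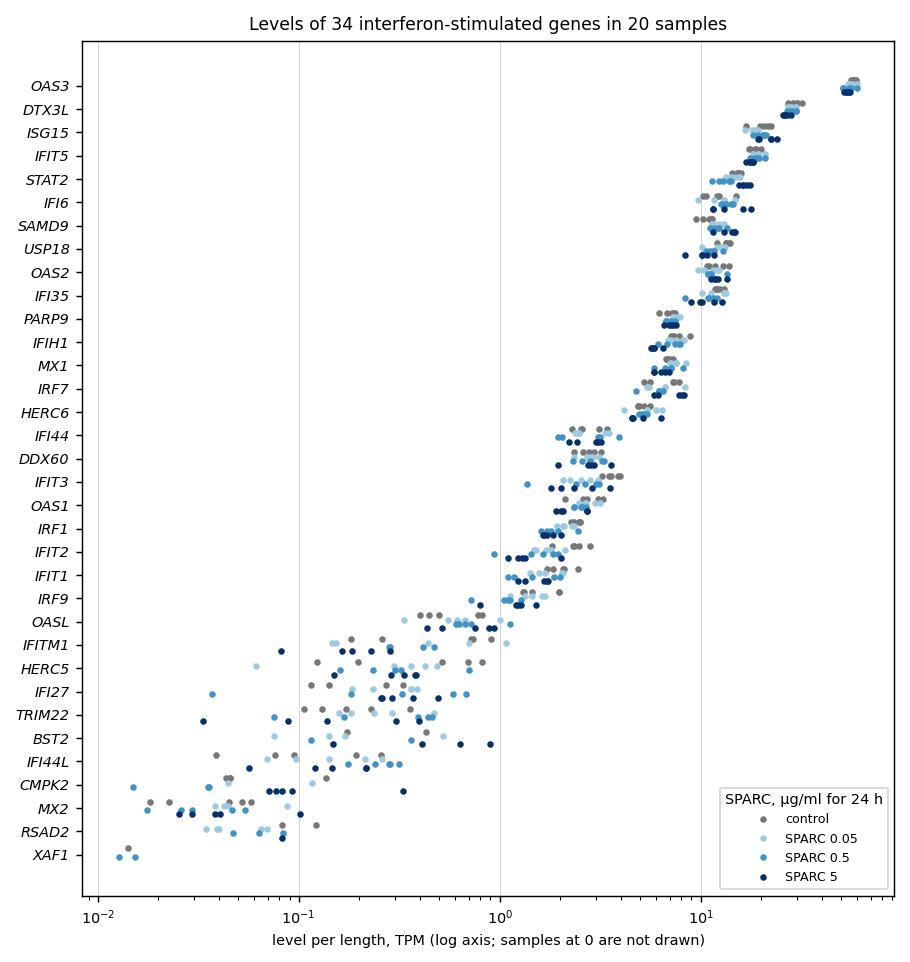
Level per length (TPM, log axis) of the 34 ISGs in each of the 20 samples, ordered by the mean; points are samples, coloured by SPARC dose, and samples at 0 are not drawn. OAS3 lies above the rest in every dose group, and XAF1 is drawn in 3 samples only.

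Of the 34 members, 28 passed the filter on low counts and were tested. The 6 left untested were IFITM1, MX2, CMPK2, RSAD2, BST2 and XAF1. IFITM1, a membrane protein that hinders virus entry, summed to 33, 30, 20 and 12 counts over the 5 samples at 0, 0.05, 0.5 and 5 µg/ml, and MX2 to 27, 31, 29 and 35 counts. In the annotation 32.5% of IFITM1's exon bases are shared with IFITM2 on the same strand, so its count may miss reads there. CMPK2, a nucleotide kinase next to RSAD2 on chromosome 2, summed to 12, 8, 5 and 32 counts in the same order, RSAD2 to 11, 14, 11 and 4, and BST2 (tetherin) to 8, 11, 6 and 26. No sample held more than 16 counts of any of these 6 genes, and the library with 16 counts of CMPK2 was replicate 4 at 5 µg/ml, where the other 4 had 4 counts each. In a fit without the filter, 0 of these 6 passed in any of the 6 pairwise comparisons. IFITM1 at 5 µg/ml against control, with 3, 2, 4, 2 and 1 counts against 3, 10, 10, 8 and 2, had a log2 fold change of −1.48 ± 0.91 there (adjusted p = 0.435). In the same comparison XAF1 had −1.43 ± 1.16 and RSAD2 −1.26 ± 1.35. BST2 had 1.69 ± 1.2, CMPK2 1.28 ± 1.12 and MX2 0.3 ± 0.77. CMPK2 at 5 against 0.5 µg/ml had an unadjusted p under 0.05 in that fit (adjusted p = 0.348, edgeR).

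The question the design poses is what SPARC, at rising dose, does to RNA levels in corneal epithelial cells. At 5 µg/ml against control, 4 tested ISGs fell (IFIH1, IFIT2, IRF1 and USP18), 1 rose (SAMD9) and 23 did not pass (edgeR's quasi-likelihood test on all genes, Benjamini-Hochberg adjusted p under 0.05). Calls in either direction made up 17.9% of the 28 members, against 11.6% of all 22938 genes tested. Falls were 14.3% of members and 4.58% of all genes, and the rise 3.57% of members and 7.04% of all genes. The members' median log2 fold change was 0.00, with 14 above and 14 below 0, and that of all genes −0.007. In 4 members, all of them called, the CPM values of the groups did not overlap, against 7.68% of all genes. At an unadjusted p under 0.05 by edgeR there were 9 members. IFIH1, IFIT2, IFIT3, IRF1, USP18, OAS3 and DTX3L were lower, and SAMD9 and STAT2 higher. The 5 calls lay within a list whose median was at 0, and all of them were changes of less than 1 on the log2 scale.

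IFIH1 (MDA5), the cytoplasmic sensor of long double-stranded RNA, lies on chromosome 2 at 162267079 to 162318703 (minus strand, GRCh38). Its level was 11.8, 11.5, 11.6, 13.6 and 11.2 CPM in controls, 11.2, 10.7, 12.9, 12.9 and 11.7 at 0.05 µg/ml, 9.73, 11.8, 10.9, 12.4 and 12.7 at 0.5 µg/ml, and 10.7, 9.29, 9.08, 9.25 and 9.07 at 5 µg/ml. All 5 samples of the top dose lay below all 5 controls, while the lower doses overlapped the controls. The fall at 5 µg/ml was −0.34 ± 0.09 on the log2 scale (adjusted p = 0.00327). It also held against 0.05 µg/ml (−0.33 ± 0.09, adjusted p = 0.00583). At 0.5 and 0.05 µg/ml against control the differences were −0.06 ± 0.08 and −0.01 ± 0.09. DDX60, a helicase linked to RNA sensing, had 5.95 ± 1.23 CPM at 5 µg/ml and 5.71 ± 0.661 CPM in controls, with a difference of 0.06 ± 0.12 that did not pass.

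In the IFIT family, proteins that bind viral RNA and lie in a cluster on chromosome 10, IFIT2 fell at 5 µg/ml. IFIT2 (89283694 to 89309276, plus strand) had 2.84, 2.93, 3.15, 3.47 and 2.29 CPM in controls, 2.28, 2.13, 1.87, 1.92 and 2.62 at 0.05 µg/ml, 1.19, 2.07, 2.48, 1.81 and 2.4 at 0.5 µg/ml, and 1.71, 1.4, 1.58, 2.59 and 1.72 at 5 µg/ml. Replicate 4 of the top dose lay above the lowest control, so the groups overlapped, and the other 4 lay below every control. Its log2 fold change at 5 µg/ml was −0.71 ± 0.19 (adjusted p = 0.00568), a fold of 0.613. At 0.5 µg/ml it was −0.55 ± 0.19 (adjusted p = 0.104) and at 0.05 µg/ml −0.44 ± 0.19 (adjusted p = 0.433), neither of which passed. In the annotation 8.7% of IFIT2's exon bases are shared with a same-strand gene, AL353751.1, so that a small part of its count may be divided.

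IFIT3 and IFIT1, which form complexes with IFIT2, did not pass at any dose. IFIT3 had 2.81, 2.84, 2.63, 3.14 and 3.14 CPM in controls, 2.51, 2.28, 1.82, 1.68 and 2.02 at 0.05 µg/ml, 2.48, 2.18, 1.98, 1.12 and 2.59 at 0.5 µg/ml, and 3.01, 2.37, 1.48, 1.93 and 1.66 at 5 µg/ml. Every sample of the lower doses was under the lowest control, while replicate 1 of the top dose lay among the controls. The differences from control were −0.50 ± 0.19, −0.50 ± 0.19 and −0.48 ± 0.19 at 0.05, 0.5 and 5 µg/ml, with adjusted p of 0.341, 0.174 and 0.0953. Without replicate 1 of the 5 µg/ml group, the last became −0.65 (adjusted p = 0.0241). IFIT1 averaged 2.23 ± 0.351 CPM at 5 µg/ml and 2.86 ± 0.354 CPM in controls, a difference of −0.36 ± 0.18 (adjusted p = 0.227). IFIT5 had 22.3 ± 0.963 and 22.6 ± 0.947 CPM, a difference of −0.02 with a 95% interval of −0.14 to 0.10.

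Among the transcription factors of the pathway, IRF1 fell at 5 µg/ml and STAT2 followed the dose in no single direction. IRF1 (chromosome 5, 132481609 to 132490798, minus strand) had 5.82, 6.04, 5.46, 5.52 and 5.95 CPM in controls, 5.46, 4.94, 4.96, 5.63 and 4.52 at 0.05 µg/ml, 5.93, 4.11, 3.89, 4.36 and 4.77 at 0.5 µg/ml, and 4.29, 4.05, 4.47, 3.96 and 4.91 at 5 µg/ml. The top dose lay wholly under the controls. At the middle dose replicate 1 lay within the control range and the other 4 under it. The fall at 5 µg/ml was −0.41 ± 0.12 (adjusted p = 0.0182), and without replicate 4 of that group the adjusted p was 0.0552. Differences of −0.33 ± 0.12 at 0.5 µg/ml (adjusted p = 0.166) and −0.18 ± 0.12 at 0.05 µg/ml (adjusted p = 0.724) did not pass. Of its exon bases, 22% are also annotated to C5orf56 on the opposite strand. Whether the counting used strand is not given in the sources used here, and without strand the reads of the 2 genes cannot be told apart.

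STAT2, the subunit that gives the interferon-activated complex its strongest activation domain, lies on chromosome 12 at 56341597 to 56360155 (minus strand). It had 28, 28.6, 27, 28.7 and 29.9 CPM in controls, 27.7, 29.2, 26.5, 25.2 and 28.5 at 0.05 µg/ml, 23.2, 21.4, 27.1, 26.1 and 24.9 at 0.5 µg/ml, and 31.9, 30.8, 33.7, 32.3 and 29.7 at 5 µg/ml. The middle dose was low and the top dose high, and these 2 groups did not overlap. STAT2 fell at 0.5 µg/ml against control (−0.21 ± 0.06, adjusted p = 0.029), where 1 of the 5 samples, replicate 3, lay within the control range. It rose at 5 µg/ml against 0.5 µg/ml (0.37 ± 0.06, adjusted p = 7.87e-07) and against 0.05 µg/ml (0.21 ± 0.06, adjusted p = 0.00792). Against control the difference at 5 µg/ml was 0.16 ± 0.06 (adjusted p = 0.0544). It passed in 6 of 28 alternatives, with the GC and length correction (0.0458), DESeq2 (0.042) and limma-voom (0.0491), and without control replicate 5 (0.0392), replicate 2 at 0.5 µg/ml (0.0458) or replicate 5 at 5 µg/ml (0.0405). The call at 0.5 µg/ml ended when any 1 of 5 libraries was left out: control replicates 2, 4 or 5 gave adjusted p of 0.062, 0.0606 and 0.0727, and replicates 1 or 2 of the dose gave 0.0837 and 0.146. Without replicate 4 at 0.05 µg/ml, the difference of the top dose from that dose also missed (adjusted p = 0.0599).

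IRF9, the DNA-binding partner of STAT2, averaged 1.86 ± 0.423, 1.67 ± 0.261, 1.24 ± 0.233 and 1.44 ± 0.321 CPM at 0, 0.05, 0.5 and 5 µg/ml. Its difference from control was −0.58 ± 0.22 at 0.5 µg/ml (adjusted p = 0.171) and −0.37 ± 0.22 at 5 µg/ml (adjusted p = 0.337). These values are uncertain, since 48.4% of its exon bases are shared with AL136295.5 on the same strand. IRF7, which drives interferon-alpha genes, had 5.97 ± 0.925 CPM at 5 µg/ml and 5.32 ± 0.949 CPM in controls (0.16 ± 0.13, adjusted p = 0.513).

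**Figure D3:**
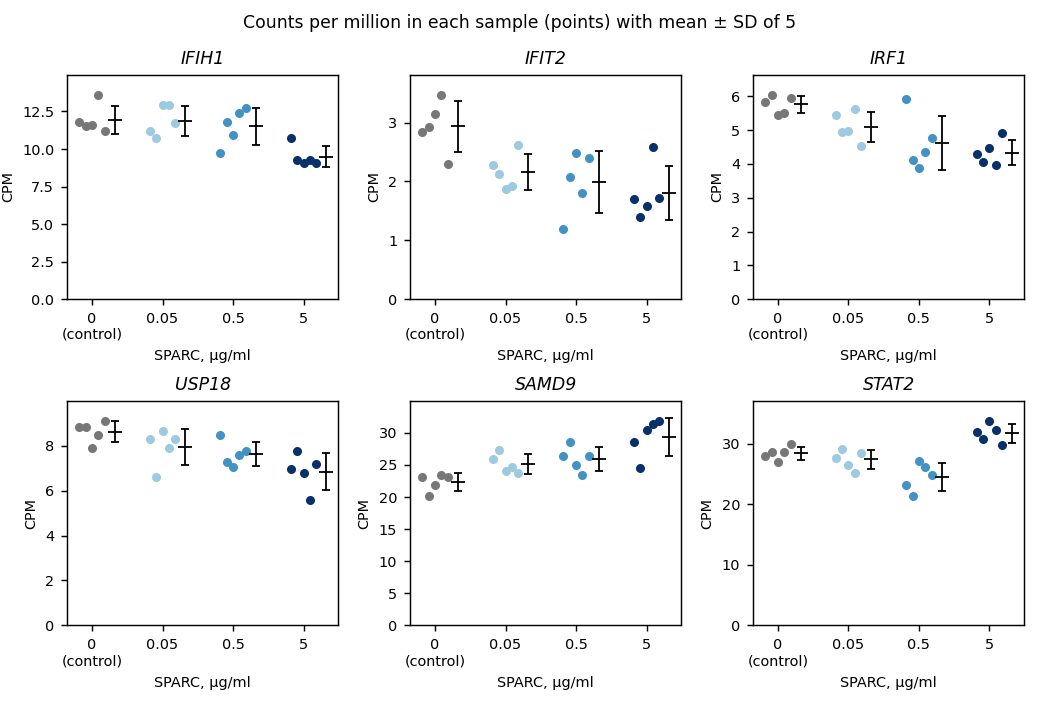
CPM of 6 ISGs in each sample (points) with the mean ± SD of the 5 replicates beside them, by SPARC dose in µg/ml. IFIH1, IRF1 and USP18 at 5 µg/ml lie under all controls, SAMD9 above them, and STAT2 is lowest at 0.5 µg/ml and highest at 5 µg/ml.

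In the ISG15 pathway, USP18 fell and the modifier itself did not pass. USP18, the protease that removes ISG15 and restrains the type I receptor, lies on chromosome 22 at 18149899 to 18177397 (plus strand). It had 8.83, 8.82, 7.9, 8.49 and 9.08 CPM in controls, 8.29, 6.61, 8.64, 7.88 and 8.28 at 0.05 µg/ml, 8.47, 7.28, 7.05, 7.56 and 7.76 at 0.5 µg/ml, and 6.95, 7.77, 6.76, 5.56 and 7.18 at 5 µg/ml. The top dose lay under every control, though only narrowly for replicate 2, and both lower doses overlapped the controls. The fall was −0.33 ± 0.10 (adjusted p = 0.0166), and 0.0946 was the adjusted p without replicate 4 of the 5 µg/ml group. USP41, a near-identical copy that could take reads of USP18, had 0 to 8 counts per sample.

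ISG15 had 5.52, 4.89, 6.28, 6.32 and 5.98 CPM in controls, 5.37, 5.19, 4.8, 5.57 and 5.33 at 0.05 µg/ml, 5.96, 5.61, 5.99, 5.32 and 6.3 at 0.5 µg/ml, and 5.83, 6.55, 7.05, 6.55 and 5.74 at 5 µg/ml. All 5 samples at 5 µg/ml lay above those at 0.05 µg/ml, but not above the controls. The difference from control at 5 µg/ml was 0.13 (95% interval −0.09 to 0.35, adjusted p = 0.563), and that from 0.05 µg/ml 0.27 ± 0.11 (adjusted p = 0.137, and 0.0497 with DESeq2). HERC5, the ligase that attaches ISG15, was low, at 0.459 ± 0.147 CPM at 5 µg/ml and 0.684 ± 0.446 CPM in controls, and its difference of −0.58 ± 0.43 did not pass. HERC6, its neighbour on chromosome 4, had 9.16 ± 1.35 and 9.01 ± 0.37 CPM, with a difference of 0.02 (95% interval −0.17 to 0.21).

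SAMD9, a cytoplasmic factor that restricts poxviruses, was the 1 member that rose against control. It lies on chromosome 7 at 93099513 to 93118023 (minus strand). SAMD9 had 23.1, 20.2, 21.8, 23.5 and 23.1 CPM in controls, 25.9, 27.4, 24, 24.6 and 23.7 at 0.05 µg/ml, 26.4, 28.5, 25, 23.5 and 26.4 at 0.5 µg/ml, and 28.6, 24.5, 30.5, 31.4 and 31.8 at 5 µg/ml. No dose group overlapped the controls, although the lowest sample at 0.5 µg/ml and the highest control were equal to 3 digits. The rise at 5 µg/ml was 0.40 ± 0.06 (adjusted p = 3.77e-07), a fold of 1.32, and that at 0.5 µg/ml was 0.22 ± 0.06 (adjusted p = 0.0379). The difference at 0.05 µg/ml was 0.17 ± 0.06 (adjusted p = 0.3). The top dose was also above 0.05 µg/ml (0.23 ± 0.06, adjusted p = 0.007). Its difference from 0.5 µg/ml, 0.18 ± 0.06 (adjusted p = 0.07), passed without replicate 2 of either group (0.0311 without that of 0.5 µg/ml, 0.0111 without that of 5 µg/ml).

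The libraries differed in how expression ran with base composition. The correlation, across genes, of a library's log2 deviation with the GC content of the gene averaged 0.129 ± 0.107 in controls, −0.0368 ± 0.0319 at 0.05 µg/ml, −0.0601 ± 0.0427 at 0.5 µg/ml and −0.0394 ± 0.087 at 5 µg/ml (SD, n = 5 each). The mean of the controls stood above those of all 3 doses. SAMD9 is an AT-rich gene, at 36.1% GC. With each library's trend with GC content and length removed, its rise at 5 µg/ml was 0.31 (adjusted p = 3.61e-05) and its difference at 0.5 µg/ml was 0.15 (adjusted p = 0.243), so the call at 0.5 µg/ml ended. That call also ended with library sizes only (adjusted p = 0.0756), with limma-voom (0.0562) and without control replicate 2 (0.134) or 3 (0.0979) or replicate 1 (0.0701), 2 (0.143) or 5 (0.0811) of the dose. IFIH1, at 41.7% GC, had a corrected fall of −0.37 (adjusted p = 9e-04), and IFIT2, IRF1 and USP18 kept their calls at 5 µg/ml under that correction.

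No member of the OAS family passed at any dose. OAS3 had 145, 149, 148, 143 and 141 CPM in controls, 151, 135, 139, 141 and 143 at 0.05 µg/ml, 154, 143, 131, 130 and 142 at 0.5 µg/ml, and 142, 136, 133, 141 and 141 at 5 µg/ml. The groups overlapped throughout, and the difference at 5 µg/ml was −0.07 ± 0.03 (adjusted p = 0.194). With library sizes only it was −0.11 (adjusted p = 0.00728). OAS1 averaged 3.54 ± 0.609 CPM at 5 µg/ml and 4.17 ± 0.682 CPM in controls (−0.24 ± 0.14, adjusted p = 0.336), and OAS2 23.9 ± 2.14 and 22.9 ± 2.32 CPM (0.06 ± 0.07, adjusted p = 0.703). OASL, a relative without oligoadenylate synthesis, had 0.776 ± 0.236 and 0.631 ± 0.21 CPM, with a difference of 0.29 ± 0.33.

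MX1, a GTPase that blocks influenza and other viruses, had 17.3, 19.5, 17.8, 17.8 and 18.7 CPM in controls, 22.2, 19.9, 19.9, 18.8 and 18.2 at 0.05 µg/ml, 19, 18.9, 22, 17.7 and 16 at 0.5 µg/ml, and 17.6, 18.6, 17.9, 15.8 and 15.8 at 5 µg/ml. The top dose overlapped the others. MX1 fell at 5 against 0.05 µg/ml (−0.21 ± 0.07, adjusted p = 0.0493), but not at 5 µg/ml against control (−0.09 ± 0.07, adjusted p = 0.527). That call, close to the threshold, ended in 14 of 28 alternatives, with adjusted p as high as 0.208 without replicate 1 at 0.05 µg/ml. The others were limma-voom (0.0651), control replicates 3, 4 or 5 left out (0.0501, 0.0533, 0.0506), replicates 2 or 3 at 0.05 µg/ml (0.0819, 0.0823), replicates 1, 2 or 4 at 0.5 µg/ml (0.0525, 0.0528, 0.0524) and replicates 1, 3, 4 or 5 at 5 µg/ml (0.0543, 0.0524, 0.154, 0.135).

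DTX3L and PARP9 overlap at their starts on chromosome 3 and run away from each other, and 217 of their exon bases lie on each other's opposite strand. DTX3L had 55.4, 52.5, 49.2, 52.9 and 54.6 CPM in controls, 50.5, 48.4, 49.9, 53.1 and 52.8 at 0.05 µg/ml, 54.1, 51.3, 50.4, 54.3 and 49.8 at 0.5 µg/ml, and 48.4, 51.3, 47.3, 48.1 and 49.4 at 5 µg/ml. At the top dose 3 of 5 samples lay below the lowest control. The difference was −0.11 ± 0.04 (adjusted p = 0.0662), and it passed with DESeq2 (adjusted p = 0.0367), with library sizes only (0.00398), with the GC and length correction (0.0136) and without control replicate 3 (0.0271) or replicate 2 at 5 µg/ml (0.0329). The authors' deposited table gives DTX3L at 5 µg/ml a log2 fold change of −0.12 and an adjusted p of 0.0404. PARP9 averaged 19.9 ± 1.02 CPM at 5 µg/ml and 19 ± 1.48 CPM in controls, a difference of 0.06 (95% interval −0.07 to 0.19). The 2 neighbours, which share the ISRE match shown above, thus had estimates on either side of 0, and the difference between them was not tested.

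The remaining members did not pass in any comparison. IFI6, a membrane protein of the endoplasmic reticulum, had 3.17 ± 0.432, 3.29 ± 0.502, 3.65 ± 0.235 and 3.79 ± 0.752 CPM at 0, 0.05, 0.5 and 5 µg/ml, and its difference at 5 µg/ml was 0.26 ± 0.15. IFI27 had at most 33 counts in a sample and 0.433 ± 0.128 CPM at 5 µg/ml, against 0.215 ± 0.162 CPM in controls. Its log2 fold change of 1.00 ± 0.54 (adjusted p = 0.265) was the largest of the 28 tested members at that dose and had the largest SE. At 0.5 and 0.05 µg/ml its differences from control were 1.08 ± 0.54 and 0.84 ± 0.54 (adjusted p of 0.347 and 0.689). IFI44L had 0.483 ± 0.213 CPM at 5 µg/ml and 0.409 ± 0.273 CPM in controls. At 0.5 µg/ml IFI44L averaged 0.828 ± 0.174 CPM, a difference from control of 1.01 ± 0.41 (adjusted p = 0.202). IFI44 (0.04 ± 0.21), IFI35 (−0.17 ± 0.11) and TRIM22, a ubiquitin ligase (0.02 ± 0.48), gave log2 fold changes at 5 µg/ml within 2 SE of 0. Rare transcripts were the noisy ones: the within-group coefficient of variation was 3.97% for DTX3L and 58.4% for TRIM22.

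**Figure D4:**
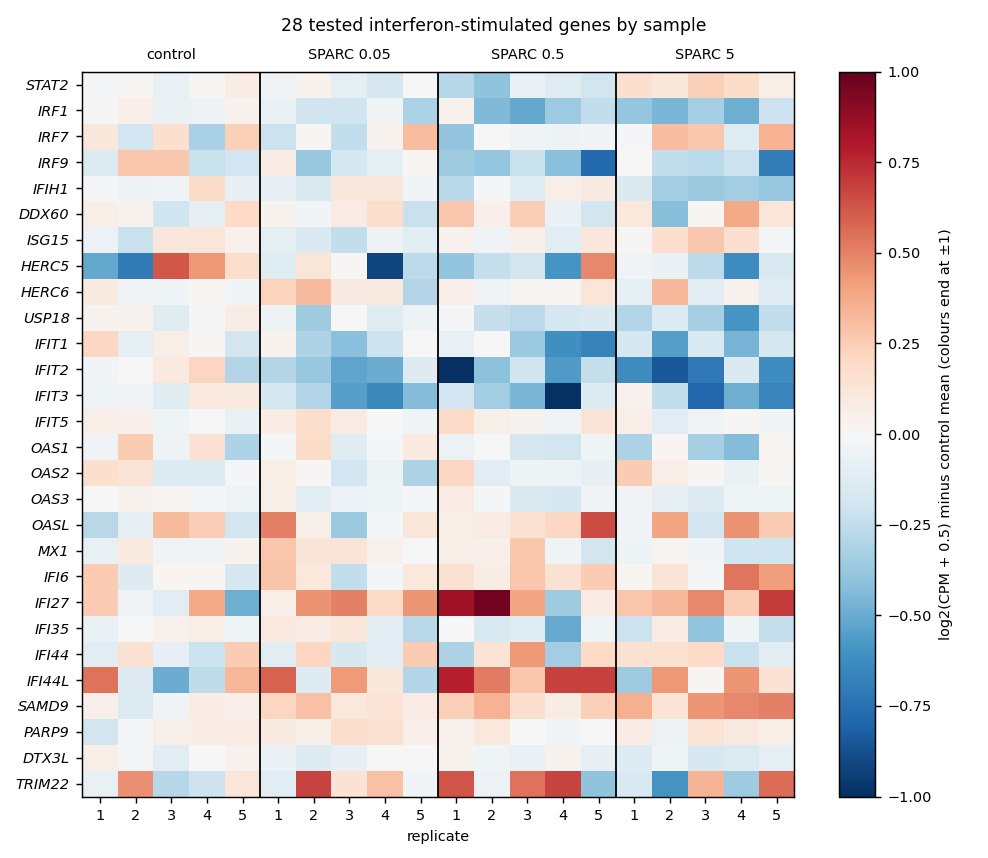
Each tested ISG (row) in each sample (column, grouped by SPARC dose in µg/ml) as log2(CPM + 0.5) minus the control mean; colours end at ±1. IFIH1, IFIT2, IRF1 and USP18 are mostly blue at 5 µg/ml, SAMD9 is red, and most other rows show no block of one colour.

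At the lower doses few members were called. At 0.5 µg/ml against control, SAMD9 rose, STAT2 fell and 26 did not pass, so that 7.14% of members were called, against 2.25% of all genes (1.36% higher, 0.894% lower). The members' median log2 fold change was −0.03 and that of all genes −0.004. At this dose 9 members had an unadjusted p under 0.05 by edgeR. Shares of all genes at that unadjusted threshold are not given here for any dose. At 0.05 µg/ml against control, edgeR called 0 of the 28, against 0.266% of all genes, with 3 members at an unadjusted p under 0.05 and a median of −0.01. DESeq2 and limma-voom also called 0 members there. The 3 comparisons with control share the 5 control samples. By group means alone, 11 members were below control at all 3 doses, 9 were above and 8 were mixed. The means of IFIH1, IFIT2, IRF1, OAS3 and USP18 stepped down at every dose, and those of IFI6 and SAMD9 stepped up. With 3 doses and no test of the order, these are descriptions, and shares of all genes with such patterns are not given here. Some steps were small beside the spread: IFIH1 averaged 12 ± 0.961 CPM in controls and 11.9 ± 0.985 CPM at 0.05 µg/ml.

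**Figure D5:**
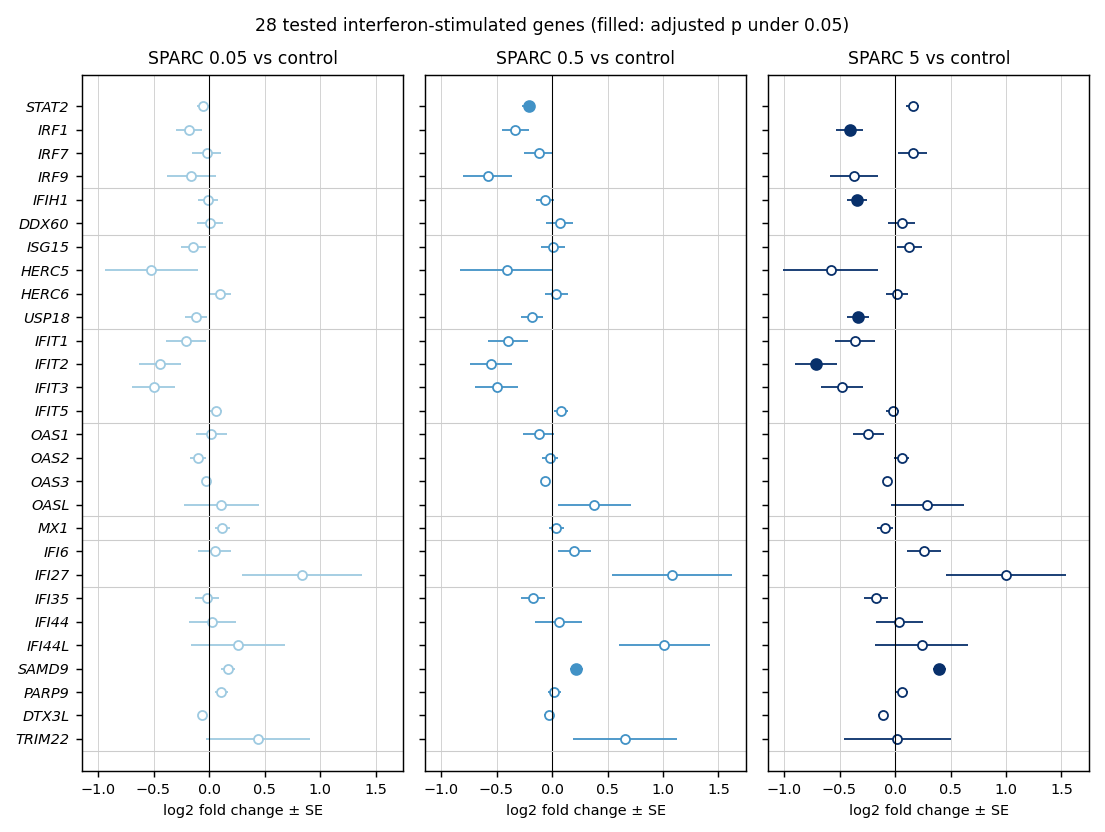
Log2 fold change ± SE of the 28 tested ISGs for SPARC 0.05, 0.5 and 5 µg/ml against control (panels from left to right), in role groups; filled circles passed adjusted p under 0.05. No circle is filled at 0.05 µg/ml, 2 are filled at 0.5 µg/ml and 5 at 5 µg/ml, of which SAMD9 alone lies right of 0.

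Between doses, 2 members differed at 5 against 0.5 µg/ml, STAT2 upward and IFIH1 downward (−0.28 ± 0.09, adjusted p = 0.0368), against 4.8% of all genes called. The IFIH1 call ended without replicates 2, 4 or 5 of the 0.5 µg/ml group (adjusted p of 0.0794, 0.122 and 0.142) or without replicates 2, 3, 4 or 5 of the 5 µg/ml group (0.0619, 0.0951, 0.0783 and 0.0818). At 5 against 0.05 µg/ml, STAT2 and SAMD9 rose and IFIH1 and MX1 fell, 4 of 28, against 8.28% of all genes. At 0.5 against 0.05 µg/ml, 0 members were called by edgeR and 1, STAT2, had an unadjusted p under 0.05, against 0.179% of all genes called. DESeq2 and limma-voom called 0 there as well. A test of any difference among the 4 groups called 4 members, STAT2 (adjusted p = 5.84e-06), SAMD9 (6.12e-06), IFIH1 (0.0067) and IFIT2 (0.0237), against 11% of all genes.

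The authors' deposited tables list 23 of the 34 members and hold no column of calls. The threshold of 0.05 used here was applied to the authors' adjusted p. At 5 µg/ml SAMD9 passed it as higher (authors' adjusted p = 6.79e-06) and IFIH1, IFIT2, IRF1, USP18 and DTX3L as lower. At 0.5 µg/ml STAT2 passed as lower (authors' adjusted p = 0.0364), and SAMD9 had an authors' adjusted p of 0.0624. At 0.05 µg/ml no listed member passed.

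Genes upstream of the ISGs were read from lists of interferons, of receptors and kinases, and of nucleic acid sensors, beside the 11.6% of all genes called at 5 µg/ml against control. Of 22 interferon genes, 14 were at 0 counts in all samples, and these included IFNG and every interferon-alpha gene listed. IFNB1 had 6 counts over the 20 samples. Only IFNK, an interferon of epithelial keratinocytes, and IFNL3 could be tested. IFNK had 1.04 ± 0.173 CPM at 5 µg/ml and 0.736 ± 0.28 CPM in controls (0.49 ± 0.30, adjusted p = 0.347), and IFNL3 0.388 ± 0.18 and 0.216 ± 0.0641 CPM (0.82 ± 0.53, adjusted p = 0.391), with reads that its near-identical copy IFNL2 may share. Of 14 receptors, kinases and regulators, JAK1, the kinase shared by the interferon receptors, was the 1 that rose at 5 µg/ml, with 137 ± 3.32 CPM against 119 ± 2.78 CPM in controls (0.20 ± 0.03, adjusted p = 4.39e-08), and none fell. IFNAR1, a chain of the type I receptor, had 54.8 ± 1.28 and 50.7 ± 2.31 CPM (0.11 ± 0.04, adjusted p = 0.0728).

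Among 15 genes of nucleic acid sensing, 13 were tested, and edgeR, DESeq2 and limma-voom each called 0 at 5 µg/ml, with 1 at an unadjusted p under 0.05 in edgeR. Of 34 further ISGs outside the member list, 32 were tested, 2 rose and 2 fell at 5 µg/ml (against 7.04% and 4.58% of all genes), and their median log2 fold change was −0.01. LY6E, a membrane protein that restricts coronaviruses, fell to 187 ± 5.56 CPM, against 220 ± 15.1 CPM in controls (−0.23 ± 0.03, adjusted p = 5.44e-09), and TRIM14, a partner of MAVS, by 0.13 ± 0.03 (adjusted p = 0.000115). SP100, a nuclear body protein, rose by 0.26 ± 0.05 (adjusted p = 3.86e-05), as did SLFN5 (0.34 ± 0.09, adjusted p = 0.00237), which is named after its value was seen. Of 29 genes of the interferon-gamma response and antigen presentation, 21 were tested, 4 rose and 1 fell (against the same 7.04% and 4.58% of all genes), with a median of −0.03. HLA-E rose by 0.16 ± 0.03 (adjusted p = 0.000298), CD274 (PD-L1) by 0.56 ± 0.14 (adjusted p = 0.00226) and GBP3, a guanylate-binding protein, by 0.35 ± 0.10 (adjusted p = 0.00795). The others, named after their values were seen, were B2M (0.08 ± 0.03, adjusted p = 0.0329) and TAP1, the peptide transporter, which fell (−0.13 ± 0.05, adjusted p = 0.0387). At 0.5 and 0.05 µg/ml against control, edgeR called 0 genes of these 5 lists. At an unadjusted p under 0.05 there were, at 0.5 and 0.05 µg/ml, 0 and 0 interferons, 4 and 2 receptors and kinases, 2 and 1 sensing genes, 6 and 5 further ISGs, and 0 and 2 genes of the interferon-gamma list. These counts have no share of all genes beside them, so whether they exceed it cannot be read here.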

How the data were processed

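RNA of 20 samples was measured by sequencing after ribosomal RNA depletion, per the labels' protocols. The authors deposited whole-number read counts per Ensembl gene. Per the submitters' processing notes, STAR 2.7.9a, featureCounts 2.0.3, Salmon 1.5.2, edgeR and limma were used with build GRCh38; the sources used here do not give the role of each tool, the annotation release or the strand setting. Per the file headers, the authors' deposited comparison tables hold log2 fold changes, p-values, a test statistic and log odds (score) and a signed linear fold; their per-sample log2 values were not used here.

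The count table had 60871 lines for 60671 genes; of 168 genes on 368 lines with equal counts, 1 line each was kept, which removed 0.278 to 0.296% of counts. Genes were filtered with filterByExpr (minimum count 10), leaving 22938, scaled by TMM and fitted with 4 group means in edgeR 4.0.16 (quasi-likelihood, robust; R 4.3.3), with Benjamini-Hochberg adjustment over all genes and a threshold of 0.05. Fold changes are SPARC over control, or higher over lower dose; ± beside a log2 fold change is its SE, beside a level the SD. TPM used GENCODE v29 exon lengths (GRCh38). The biological coefficient of variation was 6.68%. Pairs of replicates differed by more than sampling noise (chi-square per gene 4.09 to 9.55 over 40 pairs). Alternatives were other scalings, no filter, DESeq2 1.42.0, limma-voom (limma 3.58.1), the replicate block, only the compared groups, a GC and length correction, and each sample left out. Members, lists and motifs were chosen with earlier results of these data known. All 34 members are described; of other lists, at most 3 genes of smallest p at 5 µg/ml are named unless stated, besides interferons and receptors; values of 1 listed gene are not reported here. Intervals and the floor of 3 counts cover counting error or spread between samples only.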

Additional observations from a re-analysis of the deposited data

Results flagged for a closer look

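In 6 of 112 groups of 5 samples, the highest or lowest log2 CPM of a tested member stood apart from the other 4. Dixon's criterion at the 95% level was used, on log2 CPM with a prior count of 2 added, and chance gives about 1 in 20 groups. The levels printed below are plain CPM, to which the criterion was not applied. For IFIH1, replicate 1 at 5 µg/ml had 10.7 CPM, above the 9.07 to 9.29 CPM of the other 4, and control replicate 4 had 13.6 CPM, above 11.2 to 11.8 CPM in the rest. Both samples stood toward higher values, and the fall of IFIH1 at 5 µg/ml kept its call when either was left out. For OAS2, replicate 1 at 0.5 µg/ml had 26.5 CPM, with the others between 21.1 and 22 CPM. The same library had 3.89 CPM of IRF7, under the 5.06 to 5.24 CPM of the other 4. OASL reached 1.25 CPM in replicate 5 at 0.5 µg/ml, with 0.659 to 0.787 CPM in the rest. HERC5 was at 0.0898 CPM in replicate 4 at 0.05 µg/ml, where the others had 0.429 to 0.709 CPM.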

How the results depend on the processing

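Over 28 alternatives, no member changed direction where it was called. Each tested member was counted once for every pairwise comparison and alternative. Of these repeated results 37 lost their call, 16 gained one and 4651 stayed on their side of the threshold. MX1 at 5 against 0.05 µg/ml made up 14 of the 37. IFIT2, IFIH1 and SAMD9 at 5 µg/ml against control, STAT2 at 5 against 0.5 µg/ml, and IFIH1 and SAMD9 at 5 against 0.05 µg/ml passed under all 28. Depth limits the 6 untested members and those near 1 CPM or below.

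Counts of calls that moved by more than 1.5 times were as follows, and the cause was not tested. With library sizes only, 8 members differed among any groups (main 4) and 1 at 0.5 µg/ml against control (main 2), and the lists of further ISGs and of the interferon-gamma response had 7 (main 4) and 9 (main 5) calls at 5 µg/ml. Without a filter, 70 of all genes were called at 0.5 against 0.05 µg/ml (main 41). The GC and length correction called 1 member at 0.5 µg/ml against control, 1 sensing gene at 5 µg/ml (main 0), 12 of all genes at 0.05 µg/ml against control (main 61) and 78 at 0.5 against 0.05 µg/ml. With only the compared groups in the fit, the interferon-gamma list had 3 calls and 80 of all genes were called at 0.5 against 0.05 µg/ml. DESeq2 called 2 receptor genes (main 1), and of all genes 802 at 0.5 µg/ml against control (main 517), 206 at 0.05 µg/ml against control and 83 at 0.5 against 0.05 µg/ml. Limma-voom called 1 member at 0.5 µg/ml against control.

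Replicate numbers did not pair the samples: over 30 same-numbered pairs the correlation of deviations was −0.025 to 0.0449, and 5 of 20 samples correlated best with their own number. With the replicate block, members called were 5, 2 and 0 at 5, 0.5 and 0.05 µg/ml against control, as without it, and 66 of all genes were called at 0.5 against 0.05 µg/ml.

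Leaving out each of 20 samples gave 3 to 6 members called at 5 µg/ml against control (lowest without replicate 4 of that dose, highest without control replicate 3, among others). It gave 0 to 2 at 0.5 µg/ml (0 without control replicate 2, and without replicate 1 or 2 of that dose) and 0 to 0 at 0.05 µg/ml. Between doses it gave 1 to 2 at 5 against 0.5 µg/ml, 3 to 4 at 5 against 0.05 µg/ml and 0 to 0 at 0.5 against 0.05 µg/ml, and 3 to 5 for any difference. Calls among all genes were 2236 to 2662, 267 to 608 and 22 to 82 for 5, 0.5 and 0.05 µg/ml against control, 850 to 1142, 1543 to 1937 and 15 to 52 between doses in the same order, and 2153 to 2576 for any difference. At 5 µg/ml the lists had 0 to 0 interferons, 1 to 2 receptors and kinases, 0 to 1 sensing genes, 4 to 6 further ISGs and 3 to 5 interferon-gamma genes.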
